A study of Mus musculus with 2 samples.

Results

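The nuclear receptors described here are 47 genes, taken from a list of gene symbols and looked up in the deposited gene tables by Ensembl identifier. All 47 were listed, among 21461 nuclear protein-coding genes. The question was which receptors are expressed in an estradiol-treated erythroid line and which have no read. Total RNA was sequenced from G1E-ER4, an immortalized mouse erythroid line of C57BL/6J strain background that carries a restored Gata1, after treatment with 10 nM 17β-estradiol for 24 h. The series holds 1 group with 2 biological replicates, here replicates 1 and 2, and no untreated cells, so no effect of estradiol was measured and no test between groups was made. In this line GATA1 activity comes from a GATA1 protein fused to the ligand-binding domain of the estrogen receptor, so that estradiol switches GATA1 on in every sample.

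Nuclear receptors are transcription factors, most of them controlled by a small fat-soluble ligand such as a steroid, thyroid hormone, a retinoid, a fatty acid or an oxysterol. A typical receptor binds a hormone response element on DNA through zinc fingers and binds ligand through a separate domain, whose ligand-dependent change swaps corepressors for coactivators. Steroid receptors wait on chaperones and bind DNA as homodimers, many others pair with a retinoid X receptor (RXR), and some have no known natural ligand. In red cell development the glucocorticoid receptor is known for sustaining the proliferation of progenitors, and thyroid hormone, retinoid and orphan receptors are known to act on progenitor growth or globin genes.

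The members are recognised by the first zinc finger of the DNA-binding domain, and these segments are shown because they are what the genes share whether or not a read was found. Each segment is 69 bases of the coding sequence of the longest coding transcript in GENCODE M21 (mm10), 5′ to 3′. The last 18 bases, in capitals, are the codons of the P box, the part of the finger that reads the response element. Of the genes printed, Rxrb, Rara, Thra, Nr1h2 and Esrra were detected, Nr2f6 and Esr1 had reads but were not detected, and Rxra had no read.
Rxrb: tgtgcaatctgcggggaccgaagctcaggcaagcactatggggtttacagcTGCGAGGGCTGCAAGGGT
Rxra: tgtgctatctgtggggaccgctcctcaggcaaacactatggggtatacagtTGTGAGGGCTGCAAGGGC
Rara: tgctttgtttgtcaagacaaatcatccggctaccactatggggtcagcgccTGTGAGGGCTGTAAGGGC
Thra: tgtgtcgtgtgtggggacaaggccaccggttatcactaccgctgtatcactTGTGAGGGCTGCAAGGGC
Nr1h2: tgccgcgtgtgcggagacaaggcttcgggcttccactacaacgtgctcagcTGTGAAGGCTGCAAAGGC
Esrra: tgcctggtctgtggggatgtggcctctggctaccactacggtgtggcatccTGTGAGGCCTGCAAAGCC
Nr2f6: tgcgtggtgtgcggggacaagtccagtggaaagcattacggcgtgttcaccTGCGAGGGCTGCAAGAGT
Esr1: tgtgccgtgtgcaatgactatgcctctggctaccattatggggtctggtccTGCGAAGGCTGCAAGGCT
The segments of Rxrb and Rxra were identical at 59 of 69 bases (85.5%), although Rxrb was expressed and Rxra had no read. The P box of Rxrb, Rara, Thra and Nr1h2 encodes the same residues, a class that held 28 of the members, of which 10 were detected, 8 had reads below the threshold and 10 had no read. The estrogen-related receptors, with Esrra printed here, form a separate class of 3, of which 1 was detected. No such segment was found in Nr0b1 or Nr0b2, which are known to lack the DNA-binding domain.

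Of the 47 receptors, 13 were detected, that is, had at least 1 TPM, a transcript level normalized for length and library depth, in both libraries. Another 12 had reads in at least 1 library and stayed below that threshold, and 22 had no read (0 expected counts) in either library. Over all nuclear protein-coding genes, 40.2% were detected by the same rule and 47.0% had no read, against 27.7% and 46.8% of the receptors. The share of receptors with no read was thus near that of all genes, and the share detected was below it. In RNA from whole cultures, fewer cells with a transcript and less of it per cell cannot be told apart. The detected receptors had a median mean TPM of 5.77, against 9.76 for all detected nuclear protein-coding genes. Receptor transcripts summed to 125 TPM in replicate 1 and 133 TPM in replicate 2, or 0.0552% and 0.0582% of what all nuclear protein-coding genes held.

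The libraries held 50277914 and 47478888 expected counts, and nuclear protein-coding genes received 14373925 and 13901316 of them. TPM counts every listed entry, and nuclear protein-coding genes took only 22.7% and 22.9% of it, so a TPM rescaled over these genes is 4.41 or 4.37 times higher. All 10 erythroid markers, among them Hbb-bs and Tfrc, were detected, and none of 30 markers of 6 other cell types was (20 had no read, and the highest TPM in either library was 0.480).

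**Figure D1:**
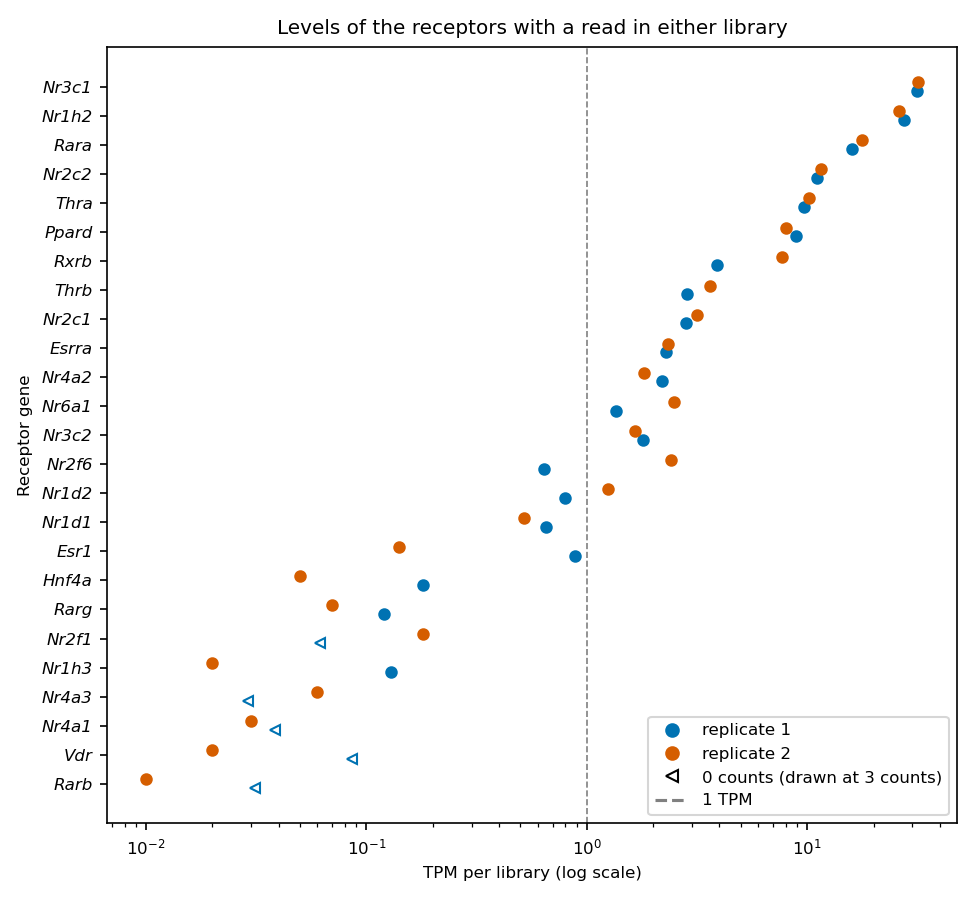
TPM of the 25 receptors with a read in either library, on a log axis, with replicate 1 in blue and replicate 2 in orange. An open triangle marks a library with 0 counts and is drawn at the TPM that 3 counts would give, and the dashed line is 1 TPM. The 13 detected receptors lie to the right of the line in both libraries, from Nr3c1 near 31.7 TPM down to Nr3c2 near 1.73 TPM.

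The steroid receptor group was led by Nr3c1, the glucocorticoid receptor, the highest of all members. Nr3c1 stood at 31.37 TPM (5821 counts) in replicate 1 and 31.95 TPM (5689 counts) in replicate 2, a mean of 31.7 ± 0.410 TPM (SD, n = 2), which ranked 1361 among 21461 nuclear protein-coding genes. It alone made up 25.1% and 24.0% of receptor TPM. Nr3c2, the mineralocorticoid receptor, which also binds glucocorticoids, had 1.80 and 1.66 TPM (146 and 171 counts), the lowest mean among detected receptors. Nr3c1 was thus 18.3 ± 1.29 times as high as Nr3c2 on the TPM scale (SD, n = 2). Pgr, the progesterone receptor and a known estrogen target in other tissues, had no read, and Nr3c1 was at least 1371-fold higher, taking 3 counts per library as the floor for Pgr. This and the later floors rest on the effective length deposited for each gene and are not strict bounds. With the deposited posterior mean TPM, Nr3c1 over Pgr was 1037 and 1057.

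Of the estrogen receptors themselves, Esr2 (estrogen receptor beta) had no read and Esr1 (estrogen receptor alpha) had 26 counts in replicate 1 and 4 in replicate 2, or 0.88 and 0.14 TPM. Scaled to the nuclear protein-coding totals, Esr1 was lower in replicate 2 by a log2 ratio of -2.65 (95% counting interval -4.63 to -1.12). All of these counts were assigned to Esr1-208, a processed transcript of 1019 nt on chromosome 10 (mm10, 4936526 to 5001656, plus strand, 5 exons), and the coding transcripts of Esr1 had 0 counts. Exons of Esr1-208 cover 689 bases of coding sequence, bases 1109 to 1797 of the 1797 coding bases of Esr1-204, the end that encodes most of the ligand-binding domain. Whether reads of the GATA1 fusion were among these counts was not tested.

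Of the estrogen-related receptors, orphan factors known for driving mitochondrial genes, Esrra had 2.29 and 2.33 TPM from 73 counts in each library, whose 95% Poisson interval runs from 57.2 to 91.8 counts. Esrrb and Esrrg had no read. Esrra was at least 58.0-fold above Esrrb and at least 77.1-fold above Esrrg by the same floor. The group therefore rested on a single gene at a low level. Esrra shares 73 exonic bases with Trmt112 on the opposite strand, which had 1712.74 and 1462.1 counts. Esrra-201, a coding transcript of 2242 nt, held 0.63 and 0.82 TPM, and shorter transcripts held the rest. Counting only coding transcripts of 1000 nt or more, Esrra would not be detected.

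Both thyroid hormone receptors were detected. Thra, which encodes TRα1 and its splice form TRα2, had 9.64 and 10.22 TPM (679 and 637 counts), and Thrb had 2.84 and 3.62 TPM (509 and 630 counts). The ratio of Thra to Thrb was 3.11 ± 0.404 (SD, n = 2) on the TPM scale, while their counts, which are not corrected for length, were closer. Thra (chromosome 11, 98740638 to 98769006, plus strand) overlaps Nr1d1 (98767932 to 98775333, minus strand) at its 3′ end, where 263 exonic bases are shared. Thra-202, which does not reach Nr1d1, took 80.68% and 64.06% of the gene's TPM, and Thra-201, which holds all 263 shared bases, took less in each library (16.46% and 23.67%).

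Nr1h2 (LXRβ), an oxysterol receptor that controls cholesterol export and fatty acid synthesis, was second among members with 27.53 and 26.00 TPM (1168 and 990 counts). Coding transcripts of Nr1h2 alone held 18.54 and 17.27 TPM. Its relative Nr1h3 (LXRα) had 8 and 1 counts, and the bile acid receptor Nr1h4 (FXR) and Nr1h5 had no read. Rara, the retinoic acid receptor alpha, was the third highest with 15.91 and 17.76 TPM (1457 and 1376 counts). Rarg had 10 and 6 counts and Rarb 0 and 1, so Rara was 193 ± 85.7 times Rarg (SD, n = 2), a ratio limited by the few Rarg counts. With the deposited posterior mean TPM, which put Rarg at 3.07 and 3.47, Rara was 5.10 ± 0.160 times Rarg (SD, n = 2). By expected counts nearly all reads in both groups belonged to 1 paralog. The PPAR group, fatty acid sensors, was alike. Ppard (PPARδ) had 8.93 and 8.03 TPM (839 and 755 counts), at least 116-fold above Ppara and at least 142-fold above Pparg, neither of which had a read.

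Of the 3 RXR genes, the common partners of these receptors, only Rxrb had reads. Rxrb stood at 3.89 TPM (224 counts) in replicate 1 and 7.65 TPM (338 counts) in replicate 2, and the log2 ratio of scaled counts was 0.64 (95% counting interval 0.39 to 0.89). It was at least 90.1-fold above Rxra and at least 74.1-fold above Rxrg. A set of 14 RXR partners (the thyroid hormone and retinoic acid receptors, the PPARs, Nr1h2, Nr1h3, Nr1h4, Vdr, Nr1i2 and Nr1i3), 5 of them detected, summed to 65.1 and 65.8 TPM. That was 16.7 times the RXR total in replicate 1 and 8.59 times in replicate 2. Nr4a1 and Nr4a2, which can also pair with RXR, were not in the set. With only protein-coding transcripts the multiples were 20.4 and 14.1. Partner transcripts thus outnumbered RXR transcripts in both libraries and by both measures, with a size that moved with the Rxrb value. Protein levels were not measured.

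A CpG-rich promoter window was found both for Rxrb, which was read, and for Rxra, which was not, and these windows are printed for that reason, from 250 bases before to 50 after the annotated start (RefSeq, GRCm38.p6), with each CpG in capitals. Each gene has 2 listed windows, of which the first is shown.
Rxrb promoter, chr17:34031562-34031861, plus strand: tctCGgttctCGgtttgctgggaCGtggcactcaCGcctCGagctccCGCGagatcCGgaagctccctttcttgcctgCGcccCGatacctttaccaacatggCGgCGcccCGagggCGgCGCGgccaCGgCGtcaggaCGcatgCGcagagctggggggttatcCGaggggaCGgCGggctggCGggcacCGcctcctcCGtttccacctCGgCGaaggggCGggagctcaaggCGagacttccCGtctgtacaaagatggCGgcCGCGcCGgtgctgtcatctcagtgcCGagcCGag
Rxra promoter, chr2:27676951-27677250, plus strand: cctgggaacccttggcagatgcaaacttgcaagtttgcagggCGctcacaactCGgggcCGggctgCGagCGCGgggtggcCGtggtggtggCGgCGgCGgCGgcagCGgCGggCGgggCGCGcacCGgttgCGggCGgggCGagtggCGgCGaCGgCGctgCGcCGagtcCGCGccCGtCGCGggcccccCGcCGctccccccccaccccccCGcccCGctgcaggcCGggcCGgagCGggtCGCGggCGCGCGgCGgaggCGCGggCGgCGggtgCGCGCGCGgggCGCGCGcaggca
The Rxrb window held 37 CpG and 68.7% G or C, with an observed over expected CpG ratio of 1.05. The Rxra window held 55 CpG and 83.0% G or C, with a ratio of 1.08, and the gene had no read. The motifs searched, on either strand, were the GATA motifs, spelled AGATAA and also AGATAG as well as TGATAA and likewise TGATAG, and the receptor core motif, spelled AGGTCA. Neither printed window held one of them. The other Rxrb window (starting at 34032100) had a CpG ratio of 0.936 and no match either. The other Rxra window (starting at 27709042) differed, with 1 CpG, a CpG ratio of 0.0459 and 2 matches to AGGTCA. Promoters were matched for 43 of the 47 receptors. A window with a CpG ratio of at least 0.6 was present for 9 of 11 detected receptors (81.8%), 6 of 12 receptors below the threshold and 8 of 20 receptors with no read (40.0%), against 38.4% of all 27025 genes in that table. A GATA motif was present for 2 of 11 detected receptors and 9 of 20 with no read, against 33.0% of all genes, and the core motif for 3 of 11 and 6 of 20, against 18.1%. The shares over all genes were not split by detection, so detected receptors were not compared with other detected genes. Genes differ in their number of windows, and any matching window counted. These shares are descriptions of the windows, and no binding was measured.

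**Figure D2:**
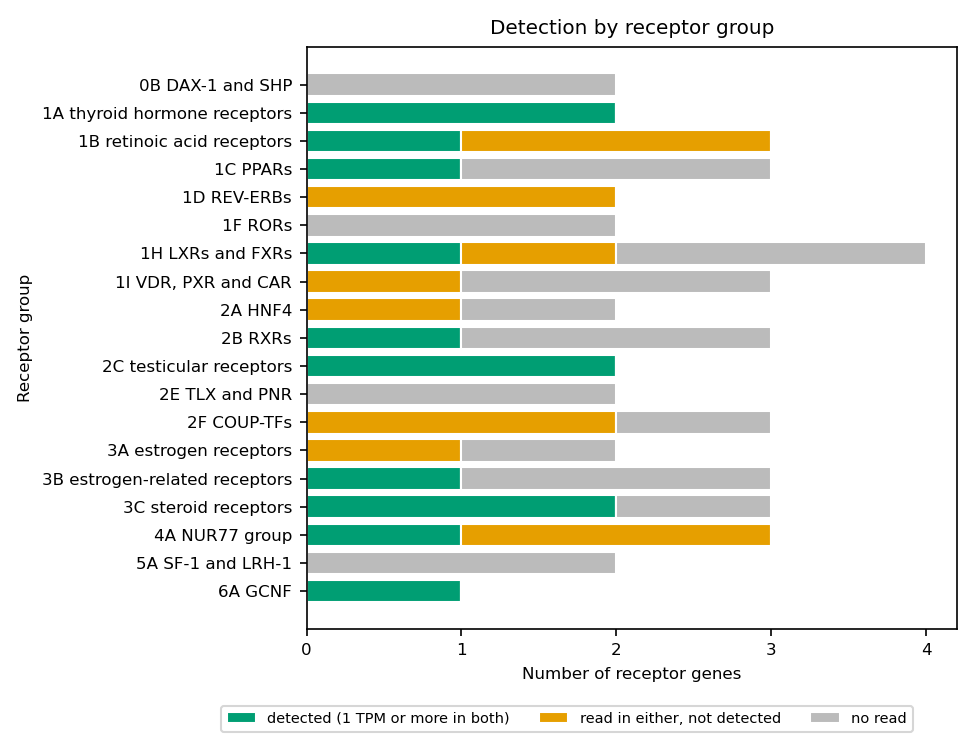
Number of receptor genes in each receptor group that were detected (green), had reads but were not detected (orange) or had no read (grey). The thyroid hormone receptor and testicular receptor groups are the ones with 2 detected of 2, and the ROR, SF-1, TLX and DAX-1 groups show no read for any listed gene.

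Among orphan receptors the testicular receptors led. Nr2c2 (TR4) had 11.11 and 11.59 TPM (2285 and 2168 counts) and Nr2c1 (TR2) had 2.83 and 3.16 TPM (332 and 343 counts). These factors are known to bind direct repeats in the embryonic and fetal globin promoters as a heterodimer. Nr2c2 was 3.80 ± 0.182 times Nr2c1 (SD, n = 2). Nr2c2 shares 4590 exonic bases with Mrps25 on the opposite strand, which had 515 and 531 counts. Whether counting used strand is not given in the sources used here. Reads in shared bases of opposite genes therefore cannot be told apart, here, for Thra and Nr1d1, and for Esrra and Trmt112.

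Nr6a1 (germ cell nuclear factor, a repressor) had 1.36 and 2.48 TPM (200 and 371 counts), and its log2 ratio of 0.94 (95% counting interval 0.69 to 1.20) was the largest among detected receptors on scaled counts, while on TPM with a pseudocount of 0.1 Rxrb differed more (log2 ratio 0.96 against 0.82 for Nr6a1). Nr4a2 (NURR1), of the ligand-independent immediate early group, had 2.20 and 1.81 TPM (202 and 182 counts), while Nr4a1 and Nr4a3 were at 0 in replicate 1 and had 2 counts and 3 counts in replicate 2. The 3 COUP-TF genes, repressors that bind many direct repeats, were not detected. Nr2f6 had 27 and 53 counts (0.64 and 2.42 TPM), Nr2f1 had 0 and 4, and Nr2f2 had no read.

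Nr2f6 and Nr1d2 lay just outside the threshold and Nr6a1 and Nr3c2 just inside it. In replicate 2, Nr2f6-208, a processed transcript of 427 nt, held 12 counts and 1.26 TPM, against 0 in replicate 1. The coding transcript Nr2f6-201 held 1.32 and 16.39 counts, or 0.02 and 0.25 TPM, so it too was higher in replicate 2. The processed transcript Nr2f6-204 was not, with 25.68 and 21.61 counts, or 0.62 and 0.55 TPM. Nr2f6 (chromosome 8, 71374123 to 71381960) shares 1622 exonic bases with Ocel1 on the opposite strand, and 33.7% of its 50-base words also occur in Ocel1, which had 50 and 52 counts.

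The REV-ERB genes, heme-binding repressors of the circadian clock, both had reads in both libraries without being detected. Nr1d2 had 104 and 154 counts (0.80 and 1.25 TPM) and Nr1d1 had 56 and 42 counts (0.65 and 0.52 TPM). The ratio of Nr1d2 to Nr1d1 was 1.82 ± 0.829 (SD, n = 2). The opposing activators of the same elements, Rora and Rorb, had no read.

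Liver and gut receptors were close to empty. Hnf4a had 25 and 6 counts (0.18 and 0.05 TPM), and Hnf4g had no read. The vitamin D receptor Vdr had 0 and 3 counts, and the xenobiotic receptors Nr1i2 (PXR) and Nr1i3 (CAR) had no read. Nr1i3 shares 47.8% of its 50-base words with Tomm40l, and Rarb shares 54.1% with Top2b, a gene with 8444 and 8485 counts. Nr1i3 had 0 counts in both libraries, and Rarb had 0 and 1.

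The remaining members with no read were Nr5a1 (SF-1) and Nr5a2 (LRH-1), which control steroid and bile acid synthesis, Nr0b1 (DAX-1) and Nr0b2 (SHP), their repressors without a DNA-binding domain, and Nr2e1 and Nr2e3, of neural progenitors and photoreceptors. For the 22 receptors with no read, 3 counts would have been 0.0182 to 0.0948 TPM at the effective length deposited for each gene and library. Reads on a shorter transcript give a higher TPM: Nr2f6-207, of 390 nt, had 3 counts and 0.36 TPM in replicate 2. The deposited posterior mean TPM put Ppara, with 0 counts, at 0.43 and 0.46. A level above that range would therefore not always have been visible, and the floors cover counting error only. A further 5 receptors had reads only in replicate 2 (1 to 4 counts each: Nr2f1, Nr4a3, Vdr, Nr4a1 and Rarb), so without that library they too would be listed at 0.

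**Figure D3:**
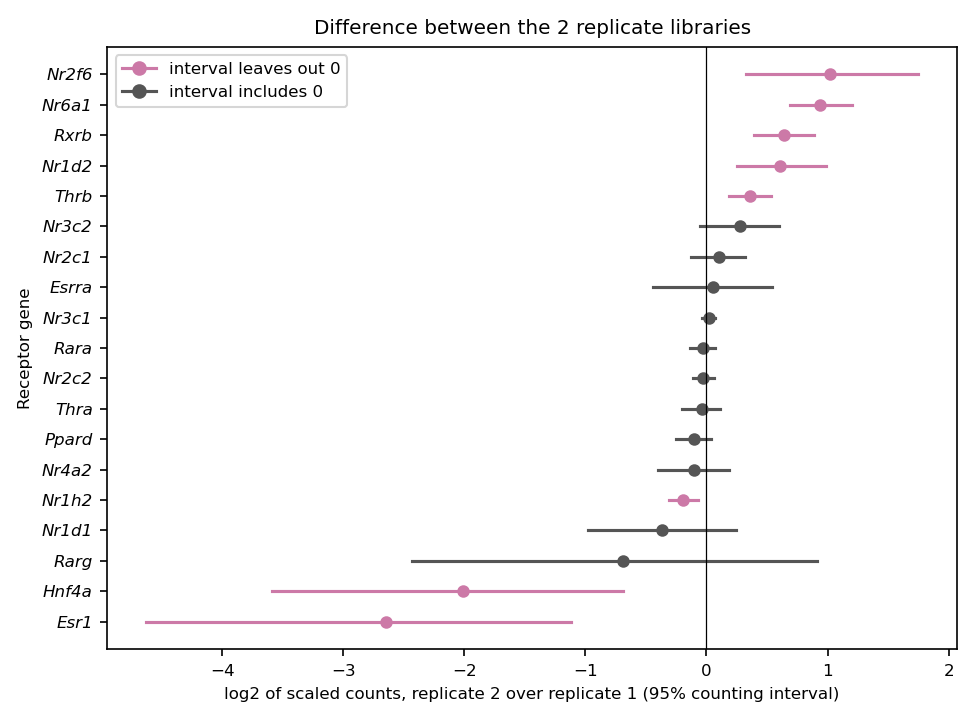
Log2 ratio of scaled expected counts, replicate 2 over replicate 1, for the 19 receptors with at least 10 counts over both libraries, with 95% intervals that cover counting error only. Pink points have intervals that leave out 0: Nr2f6, Nr6a1, Rxrb, Nr1d2 and Thrb on the right and Nr1h2, Hnf4a and Esr1 on the left.

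The libraries agreed within counting error for most of the high receptors. Of 19 receptors tested, 8 had an interval that left out 0, of which 5 were higher in replicate 2 and 3 in replicate 1. Over all nuclear protein-coding genes with as many counts, 45.2% did, so the share among receptors was near that of genes in general and counting error alone understates the spread between the libraries. Nr3c1, Rara, Nr2c2, Thra, Ppard, Nr2c1, Esrra, Nr4a2 and Nr3c2 had intervals that included 0. Nr1h2 was lower in replicate 2 (log2 ratio -0.19, interval -0.31 to -0.07) and Thrb higher (0.36, interval 0.19 to 0.53). By TPM, 3 of the 12 neighbouring pairs of detected receptors overlapped between libraries, namely Thrb with Nr2c1, Nr4a2 with Nr6a1, and Nr6a1 with Nr3c2. The other neighbouring pairs did not overlap. Thrb was above Nr2c1 within each library (2.84 against 2.83 TPM, and 3.62 against 3.16 TPM). Nr6a1, at 2.48 TPM in replicate 2, stood above Esrra (2.33 TPM) there, a pair that is not neighbouring by mean.

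Most detected receptors used a coding transcript. The leading transcript by mean share of TPM was protein-coding for 12 of 13, and the same transcript led in both libraries for 8 of 13. The leading transcript took over 50% in both libraries for 7. Nr2c1-203 held 92.5% ± 4.75 and Ppard-201 held 90.1% ± 5.79 (SD, n = 2 for each). Nr2c2-201 took 76.2% ± 3.59, Rara-207 took 73.2% ± 8.49, Thrb-203 took 69.8% ± 6.77 and Nr3c1-204 took 67.5% ± 9.69 (SD, n = 2 for each). The exception was Nr4a2, whose leading transcript by mean share was Nr4a2-206, a product of the nonsense-mediated decay class, with 35.8% ± 2.19 (SD, n = 2). Within each library, however, a coding transcript led Nr4a2: Nr4a2-203 in replicate 1 (45.02%) and Nr4a2-201 in replicate 2 (56.23%). The coding transcripts of Nr4a2 together stood at 0.99 and 1.13 TPM, against 0.82 and 0.62 TPM for Nr4a2-206. In replicate 1 Nr3c2 was led by Nr3c2-205, a processed transcript, with 45.31% from 6.21 counts.

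Rxrb used many transcripts. The leading one, Rxrb-202, held 40.7% ± 6.51 (SD, n = 2), and retained-intron transcripts such as Rxrb-208 differed between libraries (0.28 TPM in replicate 1 and 1.65 TPM in replicate 2). Coding transcripts of Rxrb alone held 2.61 and 3.71 TPM. Counting coding transcripts only, Nr4a2, Nr6a1 and Nr3c2 would fall below 1 TPM in replicate 1 (0.99, 0.98 and 0.98 TPM), and 10 receptors would be detected.

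**Figure D4:**
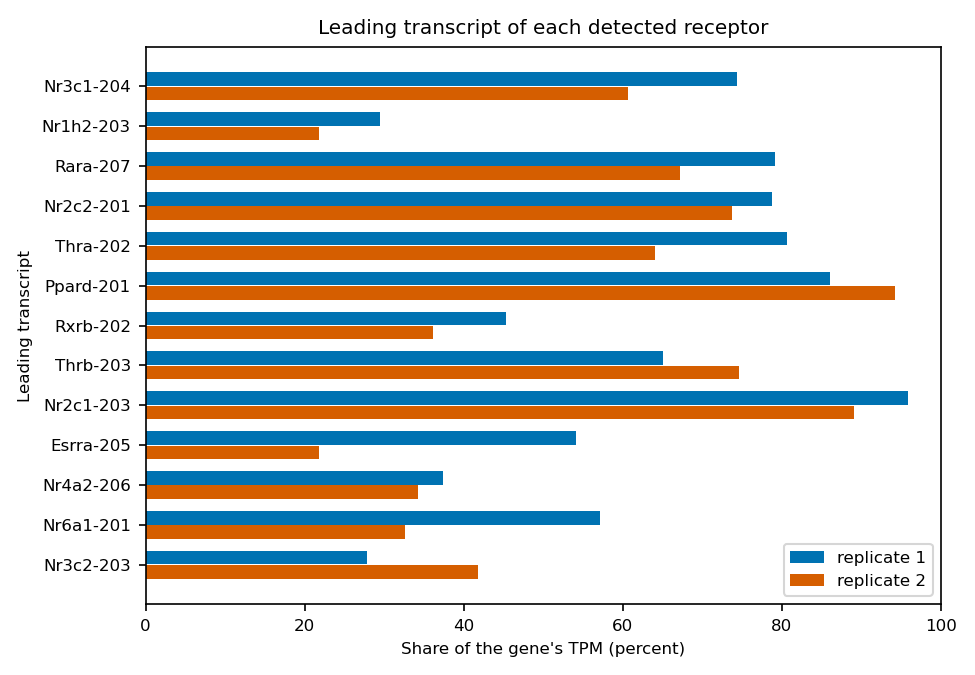
Share of each detected receptor's TPM taken by its leading transcript in replicate 1 (blue) and replicate 2 (orange). Nr2c1-203 and Ppard-201 hold over 86% in both libraries, and for Esrra, Nr4a2, Nr6a1, Nr3c2, Nr1h2 and Rxrb no transcript holds over 50% in both.

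The machinery that receptors act through was mostly detected. For this and the lists that follow, the shares over all nuclear protein-coding genes were 40.2% detected and 47.0% with no read. All 11 receptor chaperones were detected, with a median of 47.8 TPM, led by Hsp90aa1 at 724.40 and 713.16 TPM, Hspa8 at 494.53 and 561.05 TPM, Hsp90ab1 at 502.45 and 515.71 TPM and Stip1 at 90.19 and 95.86 TPM. These hold steroid receptors in a ligand-ready state. Of 16 coactivators 15 were detected, led by Med1, Ep300, Smarca4 and Ncoa4. Med1, the Mediator subunit that contacts receptors, had 27.71 and 33.15 TPM. The other coactivator, Ppargc1a (PGC-1α), had 0 and 1 counts. Of 12 corepressors 10 were detected. Ncor1, the corepressor that binds unliganded receptors, was the highest at 119.08 and 147.95 TPM, followed by Gps2, Hdac2 and Tbl1x. Hr, a corepressor of the thyroid hormone receptor, had 4 and 4 counts. Ppargc1a and Hr are named here after their values were seen.

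Genes that make, carry or break down ligands were mostly below the threshold. Retinoid handling had 3 of 13 genes detected and 6 with no read, led by Rdh11 at 9.02 and 10.38 TPM, Rdh10 at 1.49 and 2.29 TPM and Dhrs3 at 1.38 and 1.29 TPM. Thyroid hormone handling had 1 of 6, the transporter Slc16a10, at 6.19 and 6.25 TPM. The deiodinases Dio1 and Dio3 and the binding protein Crym had no read. Steroid and vitamin D enzymes had 1 of 10, Srd5a1, and the oxysterol and bile acid enzymes had 0 of 6.

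Known target genes of each receptor class were read out the same way, as levels only. The glucocorticoid list had 9 of 10 detected, led by Zfp36l2 at 76.18 and 65.00 TPM, Sgk1 at 12.38 and 12.77 TPM, Klf9 at 9.42 and 9.60 TPM and Tsc22d3 (GILZ) at 8.16 and 7.86 TPM, and Lcn2 had no read. The estrogen-related receptor list, which includes Esrra itself, had 9 of 10, led by Atp5b at 554.28 and 540.71 TPM, Cox5b and Uqcrc1, and Pdk4 had no read. These are genes that many cells use, and no receptor was manipulated here. The LXR list, which includes the member Nr1h3, had 4 of 8 detected, led by Scd2 at 191.00 and 186.98 TPM, Lpcat3 at 53.60 and 39.92 TPM, Srebf1 at 28.52 and 33.61 TPM and Abca1 at 5.28 and 4.75 TPM.

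The PPAR list had 4 of 10, led by Plin2, a lipid droplet coat protein, at 49.04 and 56.14 TPM. Clock genes had 6 of 11, led by Per1 at 7.18 and 6.88 TPM, and the immediate early list had 3 of 7, led by Egr1 at 18.48 and 20.25 TPM. Thyroid hormone targets had 2 of 6 and retinoic acid targets 2 of 8. Of 7 estrogen targets only Nrip1 was detected (15.26 and 13.80 TPM), and 0 of 7 xenobiotic targets were. Over the 17 lists, 74 of 144 genes that are not receptors were detected and 45 had no read. The shares over all nuclear protein-coding genes were 40.2% and 47.0%, and no list was tested against them.

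**Figure D5:**
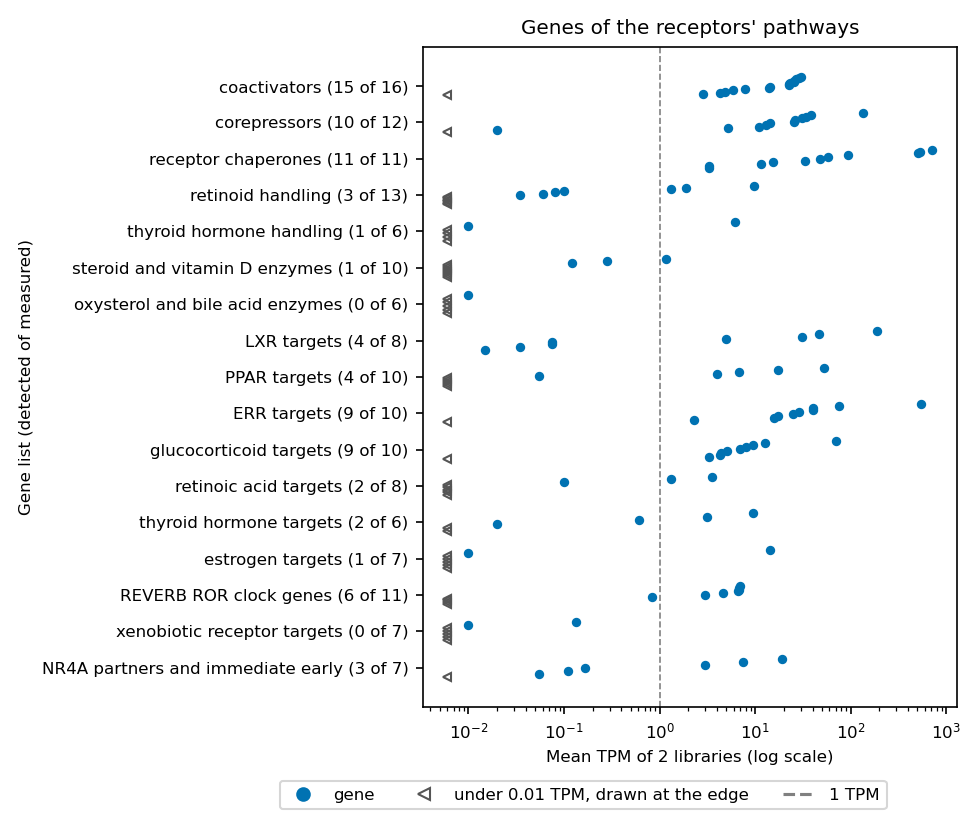
Mean TPM of 2 libraries for the genes of 17 lists around the receptors, on a log axis, with the number detected of those measured beside each list name; open triangles at the left edge are genes under 0.01 TPM. Chaperones, coactivators, corepressors and the glucocorticoid and estrogen-related receptor lists lie mostly right of the dashed line at 1 TPM, while xenobiotic and oxysterol lists lie wholly left of it.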

How the data were processed

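Levels come from gene and transcript tables of 2 libraries. Per the labels, mm10 was the assembly, with GENCODE M4 as gene annotation, per the file headers of the accompanying notes; which aligner and quantifier version were used was not given in the sources used here. Expected counts, as deposited, are estimates of reads per gene without normalization. The deposited TPM and FPKM values were scaled by the authors for length and depth, TPM over all listed entries. Deposited percent values give a transcript's share within its gene. Posterior means, TPM and counts, served only as alternatives.

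Genes were named from GENCODE M21 by identifier (42462 of 43346 Ensembl genes matched). The members and lists were chosen with earlier results of these data known. All receptors are named, with values where a read was found. Up to 4 of the highest genes per list are named, with those at 0 where few. Replicate ratios used expected counts rounded to whole numbers and scaled to nuclear protein-coding totals, with exact conditional 95% intervals for genes with 10 or more counts. Reads had no molecular identifiers that the tables show, so intervals and floors of 3 counts cover counting error only. The interval was tested on simulated counts with counting error only, so that test does not cover the wider spread between these libraries. Alternatives used edgeR 4.0.16 and DESeq2 1.42.0 scaling in R 4.3.3, and other steps used scipy 1.17.1, numpy 2.4.6, pandas 2.3.3 and, for plots, matplotlib 3.10.9 in Python 3.11.15. Prmt1 was not analysed here. Some genes and sequences that the naming rule covers are not reported here.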

Additional observations from a re-analysis of the deposited data

How the results depend on the processing

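The 13 detected receptors became 6 at a threshold of 5 TPM (Nr3c1, Nr1h2, Rara, Nr2c2, Thra and Ppard). Over all nuclear protein-coding genes, the share detected went from 40.2% at 1 TPM to 27.8% at 5 TPM. Under the other settings the number lay within 1.5 times: 16 at 0.5 TPM, with TPM rescaled to nuclear protein-coding genes or with 10 or more counts (Nr1d1, Nr1d2 and Nr2f6 added each time), 15 with posterior mean TPM (Nr2f6 and Rarg added), and 12 by FPKM (Nr6a1 lost). Over all nuclear protein-coding genes, the share was 42.3% at 0.5 TPM, 44.1% with rescaled TPM and 44.7% with 10 or more counts. It was 41.2% with posterior mean TPM and 38.2% by FPKM. Settings chosen after seeing the data gave 10 with coding transcripts only (38.0% of all nuclear protein-coding genes). They gave 9 with coding transcripts of 1000 nt or more (34.7%), where Esrra was lost as well. Leaving out a replicate gave 13 to 15 detected receptors, beside 40.9% to 41.1% of all nuclear protein-coding genes. It also gave 22 to 27 receptors with no read and 12 to 13 coding leading transcripts. Posterior mean counts under 1 left 22 with no read. Replicate ratios left out 0 for 8 receptors under every scaling and 9 with no filter on counts. Pathway genes detected ranged from 55 (5 TPM) to 76. No receptor whose interval left out 0 and that was detected changed direction. Of those whose interval included 0, with TPM and a pseudocount of 0.1 in place of counts, Nr3c2 went from 0.28 to -0.11, Rara from -0.03 to 0.16, Thra from -0.04 to 0.08 and Nr2c2 from -0.03 to 0.06 on the log2 scale, with the same signs at a pseudocount of 1. Nr2c2 was also at 0.01 with scaling to all counts. Posterior mean TPM put Rarg at 3.07 and 3.47, where the deposited TPM was 0.12 and 0.07, and the cause was not tested. It also lowered several ratios to paralogs at 0 counts, which it lists above 0 (ratios chosen after seeing the data): Rxrb over Rxra was 27.5 and 46.6, Ppard over Ppara 19.3 ± 2.38 (SD, n = 2), Esrra over Esrrb 21.3 and 21.2, and Esrra over Esrrg 14.2 and 13.4. Rxrb over Rxrg was 62.9 and 113, and Nr3c1 over Pgr 1037 and 1057. Ppard over Pparg went the other way, to 226 and 203. No paired analysis was possible because there is 1 group. Depth limits the receptors with under 10 counts, whose levels have wide counting intervals.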
